A study of Mus musculus with 2 samples.

Results

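Central and peripheral myelin genes were read in the spinal cord of mice at postnatal day 4. The genes were Mbp, Mobp, Mog, Mag, Cnp, Mal, Ugt8a and Pmp22, chosen by symbol, and all 8 were among the 32285 genes listed. They were followed across cell classes in both libraries, and also in classes that form no myelin. Barcodes of the library labelled SMA that the library labelled Con also listed were left out, which with the filters on cells left 6787 of 26921 barcodes labelled SMA and 8925 of 25419 labelled Con.

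The study asked which cells and genes of the spinal cord differ in spinal muscular atrophy (SMA), a motor neuron disease caused by loss of the SMN protein. The genotype was mSmn-/-, hSMN22tg/0 for SMA and mSmn+/-, hSMN22tg/0 for Con, so both groups carried the human SMN2 transgene and neither was wild type. Both were FVB mice of the severe Taiwanese model, and whole spinal cords were taken. Each group was 1 library made from pooled littermates, so no difference between the libraries could be set against a spread between animals, no test was made, and every interval below is a 95% interval for counting error only.

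Myelin is the stacked membrane that oligodendrocytes wrap around axons in the central nervous system and Schwann cells wrap around axons in peripheral nerves and roots. Oligodendrocytes arise from oligodendrocyte precursor cells (OPCs) by way of committed precursors (COPs) and newly formed oligodendrocytes, and the genes of myelin are switched on in steps along this path. In the mouse spinal cord this takes place mostly after birth, and the age studied falls early in it.

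Each member has a known place in the sheath. Mbp, myelin basic protein, holds the inner faces of the membrane together in both kinds of myelin, and Mobp is a small basic protein of central myelin. Mog lies on the outermost lamella of central myelin, Mag on the innermost membrane that faces the axon, and Cnp, a cyclic nucleotide phosphodiesterase, in the cytoplasmic channels. Mal is a raft proteolipid of both sheaths. Ugt8a is the enzyme that makes galactosylceramide, the main glycolipid of myelin, and Pmp22 is a membrane protein of compact peripheral myelin.

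The upstream sequence of 4 members is shown because these 4 span the steps at which the genes came on, from Cnp early to Mobp and Mog late, and because each held at least 1 of the motifs searched. Of the 8 members, 7 matched RefSeq promoter windows on GRCm38, and the 250 bases before the start were searched on both strands for the SOX motif ACAAAG, which reads CTTTGT on the other strand, and the MYRF motif CTGGCAC or CTGGTAC. SOX10 and MYRF are transcription factors of the oligodendrocyte lineage. Capitals mark the matches, and bases that GENCODE lists as exon were cut. The windows were chr11:100574689-100574903 on the plus strand for Cnp, chr7:30914923-30915172 on the minus strand for Mag, chr17:37023399-37023648 on the minus strand for Mog and chr9:120149492-120149706 on the plus strand for Mobp.
Cnp: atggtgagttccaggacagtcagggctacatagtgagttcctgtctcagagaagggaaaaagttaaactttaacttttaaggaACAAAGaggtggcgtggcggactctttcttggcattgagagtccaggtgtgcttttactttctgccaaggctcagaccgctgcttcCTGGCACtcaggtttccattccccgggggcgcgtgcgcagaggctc
Mag: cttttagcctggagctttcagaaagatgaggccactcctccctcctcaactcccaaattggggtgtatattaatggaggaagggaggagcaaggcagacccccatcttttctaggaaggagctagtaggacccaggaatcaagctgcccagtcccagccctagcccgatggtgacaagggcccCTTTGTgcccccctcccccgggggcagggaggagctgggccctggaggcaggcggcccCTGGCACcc
Mog: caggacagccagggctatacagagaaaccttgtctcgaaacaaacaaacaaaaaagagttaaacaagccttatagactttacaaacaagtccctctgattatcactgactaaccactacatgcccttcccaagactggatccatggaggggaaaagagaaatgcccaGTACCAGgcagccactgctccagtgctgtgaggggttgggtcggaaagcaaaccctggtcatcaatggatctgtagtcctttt
Mobp: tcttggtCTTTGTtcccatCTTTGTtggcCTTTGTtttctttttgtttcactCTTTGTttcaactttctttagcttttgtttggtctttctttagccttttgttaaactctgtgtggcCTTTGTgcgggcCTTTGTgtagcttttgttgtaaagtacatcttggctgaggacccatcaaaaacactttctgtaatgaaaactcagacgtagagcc
The Mobp window held the SOX motif 6 times. Of all 32851 windows of this length 16.5% held it at least 1 time, 1.74% at least 2 times, and 1 window, that of Mobp, 6 times. Cnp held 1 SOX and 1 MYRF match, as did 2 of the 3 windows of Mag. Those windows of Mag overlap and share the same matches, while the last of the 3 held neither. Mog held 1 MYRF match, where 5.93% of all windows held the MYRF motif. Mal, Ugt8a and Pmp22 had neither motif in these windows. The motifs were chosen after the data had been seen, and a match is a string of letters and not a bound site.

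The positions of the genes on GRCm38 are those of GENCODE M21. Mobp (ENSMUSG00000032517) spans chromosome 9 from 120149707 to 120181484 on the plus strand, Mog (ENSMUSG00000076439) chromosome 17 from 37010743 to 37023398 on the minus strand, and Mag (ENSMUSG00000036634) chromosome 7 from 30899176 to 30914873 on the minus strand. Cnp (ENSMUSG00000006782) spans chromosome 11 from 100574904 to 100591729 and Pmp22 (ENSMUSG00000018217) chromosome 11 from 63128982 to 63159547, both on the plus strand. Mal (ENSMUSG00000027375) spans chromosome 2 from 127633226 to 127656695 and Ugt8a (ENSMUSG00000032854) chromosome 3 from 125865271 to 125938619, both on the minus strand. All are protein-coding.

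UMIs (unique molecular identifiers, each tagging 1 captured RNA molecule) of the kept cells came to 45630633 under the SMA label and 59388215 under the Con label, with medians of 6109 and 6227 per cell. Each library listed far more barcodes than the 3000 or so cells aimed at, and 8163 barcodes were common to both. Of the Con barcodes with at least 5000 UMIs, 99.0% were also listed under SMA. Smn1, the gene targeted in the model, stood at 48.1 CPM (a class's UMIs of a gene scaled to a total of 1000000; 46.2 to 50.2) in the kept cells labelled SMA and 43.8 (42.1 to 45.5) in those labelled Con. Whether its 3′ reads lie in the deleted part of the gene was not tested, so this level may not check the genotype. It was not lower under the SMA label, so the groups are called by their labels, and each direction below rests on those labels. Classes were rebuilt by clustering without the members and are written with "-like". They were named from other markers, of which at least 5 were detected in every cluster of the oligodendrocyte lineage and 6 of 9 in the Schwann-like cluster.

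Mbp stood highest in mature oligodendrocyte-like cells. In mature cells it was at 26353 (25913 to 26799) CPM in the library labelled Con and 21798 (21415 to 22185) in the library labelled SMA. In newly formed oligodendrocyte-like cells it was at 14166 and 15022, in Schwann-like cells at 7378 and 6443, in COP-like cells at 2294 and 1553, and in OPC-like cells at 869 and 471. The order of these 5 classes was the same in both libraries, and no intervals of neighbours in it overlapped. OPC-like cells stood within the range of classes that form no myelin, below mural-like cells labelled Con (1127) and ependymal-like cells labelled SMA (501).

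Among the named classes Mobp stood high in the late oligodendrocyte-like ones alone. It was at 5144 (4951 to 5343) CPM labelled Con and 4818 (4639.5 to 5003) labelled SMA in mature cells and at 337 and 1058 in newly formed ones. In COP-like cells it was at 66.4 and 46.1, within the interval of the OPC-like level of 61.9 (57.0 to 67.0) and 43.6 (39.8 to 47.6). In Schwann-like cells, which form the other kind of myelin, its 38.9 and 54.0 CPM lay inside the range over classes that form no myelin in the library labelled Con (34.4 to 65.3) and just above it in the library labelled SMA (19.1 to 46.3).

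Mog showed the same restriction. It was at 2316 (2186 to 2450.4) CPM labelled Con and 3206 (3060.2 to 3357) labelled SMA in mature oligodendrocyte-like cells and at 85.1 and 145 in newly formed ones. In Schwann-like cells it stood at 7.78 (4.35 to 12.8) and 13.5 (6.98 to 23.6), where the 7 classes that form no myelin and had at least 50 cells in each library ran from 6.62 to 15.9 labelled Con and from 1.77 to 9.10 labelled SMA. In macrophage-like cells, a smaller class, Mog was at 41.2 CPM labelled SMA, on 15 UMIs of 38 cells. Erythroid-like cells, young red blood cells, make no myelin and serve below as the measure of background, with Mog at 6.69 and 3.13.

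The proteins of non-compact myelin were more widely spread. Mag, the axon-facing protein, stood at 8388 (8141 to 8641) CPM labelled Con and 9106 (8859.8 to 9358) labelled SMA in mature oligodendrocyte-like cells, at 2309.6 and 4053 in newly formed ones and at 589.7 and 499.8 in Schwann-like cells. Cnp was at 7705 and 6521 in mature and 6095 and 5538 in newly formed cells. In COP-like cells Cnp already reached 2475 (2422 to 2529) and 1909 (1846 to 1974), more than in Schwann-like cells (1477 and 1380.2), while Mag stood there at 143 and 111.

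Mal had 2 separate high classes. It was at 1875 (1814 to 1937) CPM labelled Con and 2390.0 (2289 to 2494) labelled SMA in Schwann-like cells and at 1758 (1646 to 1876) and 3202 (3057 to 3353) in mature oligodendrocyte-like cells. The order of these classes was turned between the libraries, with overlapping intervals under Con and not under SMA. In newly formed oligodendrocyte-like cells Mal was at 4.81 and 5.14 beside its OPC-like level (8.15 and 4.91).

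Ugt8a, the galactolipid enzyme, was at 1592 and 1764 CPM in mature, 749 and 1006 in newly formed oligodendrocyte-like and 356 and 299 in Schwann-like cells. Its 58.4 (53.7 to 63.4) labelled Con and 55.8 (51.5 to 60.4) labelled SMA in OPC-like cells stood well above the 4.02 and 2.56 of erythroid-like cells.

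Pmp22 was the peripheral gene of the set. It stood at 9348 (9212 to 9485) CPM labelled Con and 10046 (9839 to 10257) labelled SMA in Schwann-like cells. In fibroblast-like cells it was at 355 and 300.4 and in OPC-like cells at 252 (242 to 262) and 229 (221 to 238). Along the lineage it was lower after the OPC-like step, with 29.2 and 38.3 in COP-like cells, 6.25 and 3.21 in newly formed and 23.2 and 28.2 in mature oligodendrocyte-like cells. In the OPC-like cells it was not held by a few cells, since 73.0% of them labelled Con and 68.4% labelled SMA had a UMI and the highest cell had 9 and 8. After thinning the shares were 22.1% and 20.2%, against 0.783% and 0.798% of erythroid-like cells.

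**Figure D1:**
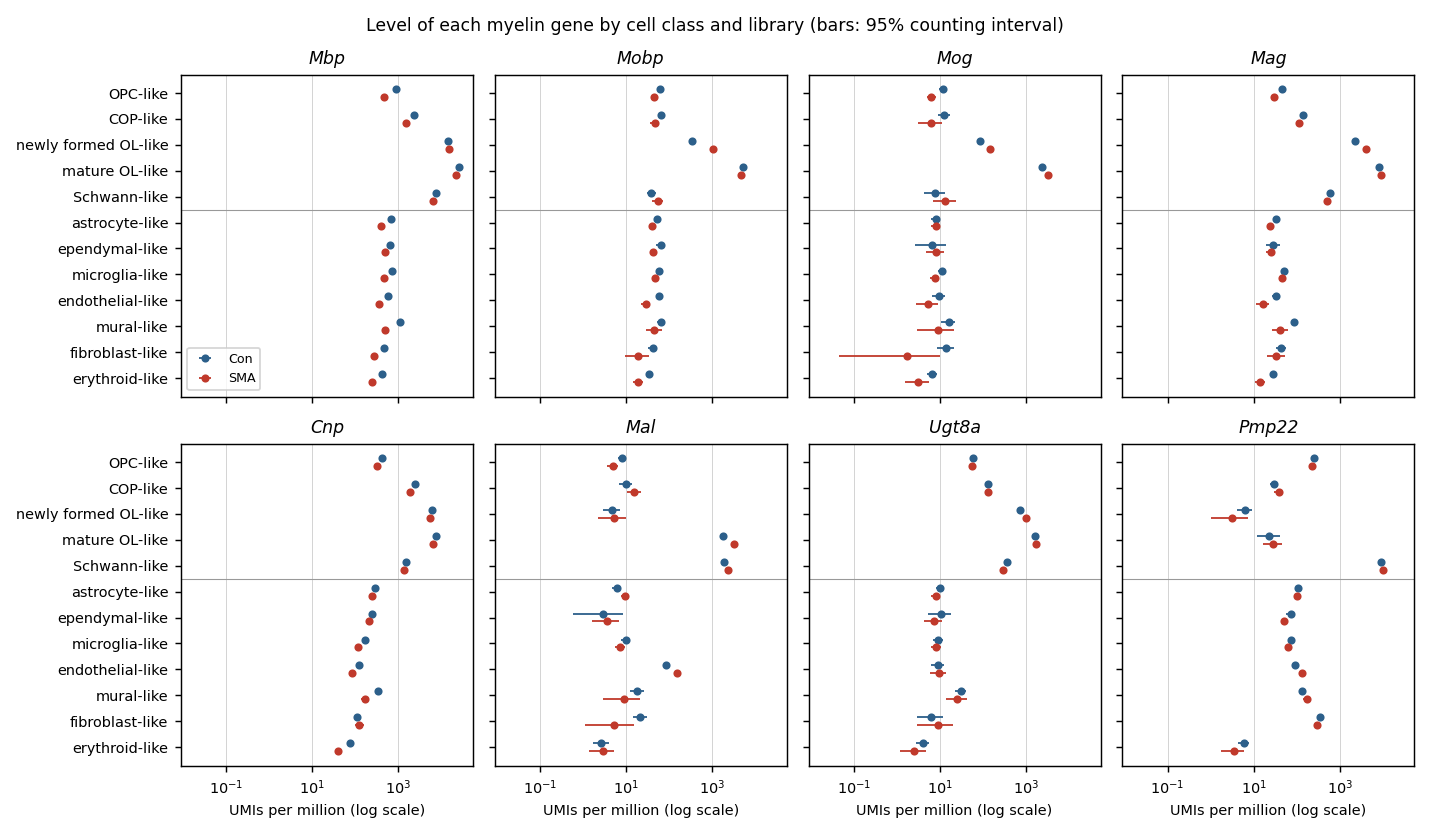
Level of each gene in CPM (horizontal log axis) by cell class (vertical axis) in the libraries labelled Con (blue) and SMA (red), with 95% counting intervals as bars; classes below the grey line form no myelin. Of the classes plotted, Mobp and Mog stand high in newly formed and mature oligodendrocyte-like cells alone, Pmp22 in Schwann-like cells, and Mal in mature oligodendrocyte-like, Schwann-like and, lower, endothelial-like cells. The unnamed clusters, and the clusters within the newly formed class, which differ in Mobp, are not plotted.

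The step at which each gene came on was read from the share of cells with at least 1 UMI after every cell was thinned to 1000 UMIs, so that depth did not set the share. The newly formed class held 2 clusters, cluster 16 with 292 cells labelled Con and 75 labelled SMA, and cluster 26 with 89 and 56. The name of cluster 16 rested on 3 markers against 2 of COP-like cells and depended on the setting. At resolution 0.5 the newly formed class held 89 and 56 cells and the COP-like class 739 and 331, in place of 447 and 256. Cluster 26 was named on 4 markers against 3 of mature oligodendrocyte-like cells, and with mitochondrial shares up to 20% a cluster with these marker counts, of 227 cells labelled Con and 115 labelled SMA, stayed unnamed. Cnp was found in 32.5% (30.3 to 34.9) of OPC-like cells labelled Con and 27.0% (25.0 to 29.0) of those labelled SMA, and in 86.4% (82.8 to 89.4) and 77.7% (72.1 to 82.7) of COP-like cells. Mbp was found in 37.9% and 26.2% of OPC-like cells, beside 25.4% and 18.1% of erythroid-like cells, whose median depth of 9588 and 9617 UMIs exceeded the 5759 and 5604 of OPC-like cells before thinning. It was found in 70.7% and 61.7% of COP-like cells and in 100% of cluster 16 in both libraries.

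Mag and Ugt8a followed at cluster 16. Mag was found in 9.84% and 7.03% of COP-like cells labelled Con and SMA, 65.8% (60 to 71.2) and 73.3% (61.9 to 82.9) of cluster 16 and 97.8% and 100% of cluster 26. Ugt8a went from 10.5% and 8.20% through 36.3% and 40% to 68.5% and 66.1%. Both genes were thus found in most cells of cluster 26. Mobp was found there in fewer cells labelled Con, 40.4%, but labelled SMA its 64.3% was near the share of Ugt8a. Mog was found in 10.1% and 21.4%.

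Of the lineage steps Mobp, Mog and Mal had their highest shares in mature cells. Mobp was found in 5.30% (4.25 to 6.51) and 3.51% (2.73 to 4.44) of OPC-like and 6.26% (4.2 to 8.93) and 5.47% (3.02 to 9.01) of COP-like cells labelled Con and SMA, with intervals that overlapped those of erythroid-like cells, 3.24% (2.18 to 4.63) and 1.86% (0.752 to 3.8). In cluster 16 Mobp was found in 2.05% (0.758 to 4.42) of cells labelled Con and 0% (0 to 4.8) of those labelled SMA. In cluster 26 it was found in 40.4% (30.2 to 51.4) and 64.3% (50.4 to 76.6) and in mature cells in 82.7% and 90.5%. Mog was found in 6.16% (3.69 to 9.57) and 1.33% (0.0338 to 7.21) of cluster 16, against 0.559% and 0.532% of erythroid-like cells, 10.1% (4.73 to 18.3) and 21.4% (11.6 to 34.4) of cluster 26 and 50% and 71.4% of mature cells. Mal was found in 0 of the 89 thinned cells of cluster 26 labelled Con and 0 of the 56 labelled SMA, which allows shares of up to 4.06% and 6.38% (Clopper-Pearson), and in 37.3% (28.2 to 47.0) and 60.3% (47.2 to 72.4) of mature cells.

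At cluster 16 the levels put Mog and not Mobp above erythroid-like cells, as did the shares labelled Con, while the interval of the Mog share labelled SMA took in the erythroid-like share. In cluster 16 labelled Con, Mog stood at 60.3 (51.9 to 69.7) CPM and Mobp at 32.9 (26.8 to 40.1), and labelled SMA at 32.5 (21.2 to 47.6) and 17.5 (9.55 to 29.3). Mobp was there at or under the 34.4 and 19.1 of erythroid-like cells, whereas Mog was above its 6.69 and 3.13. In cluster 26 Mobp reached 1161 and 2161 CPM, 22.6% and 44.8% of its mature level, and Mog 152 and 264, 6.58% and 8.25% of its own. Mbp at that step was already at 92.0% and 102% and Cnp at 92.8% and 99.1%.

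**Figure D2:**
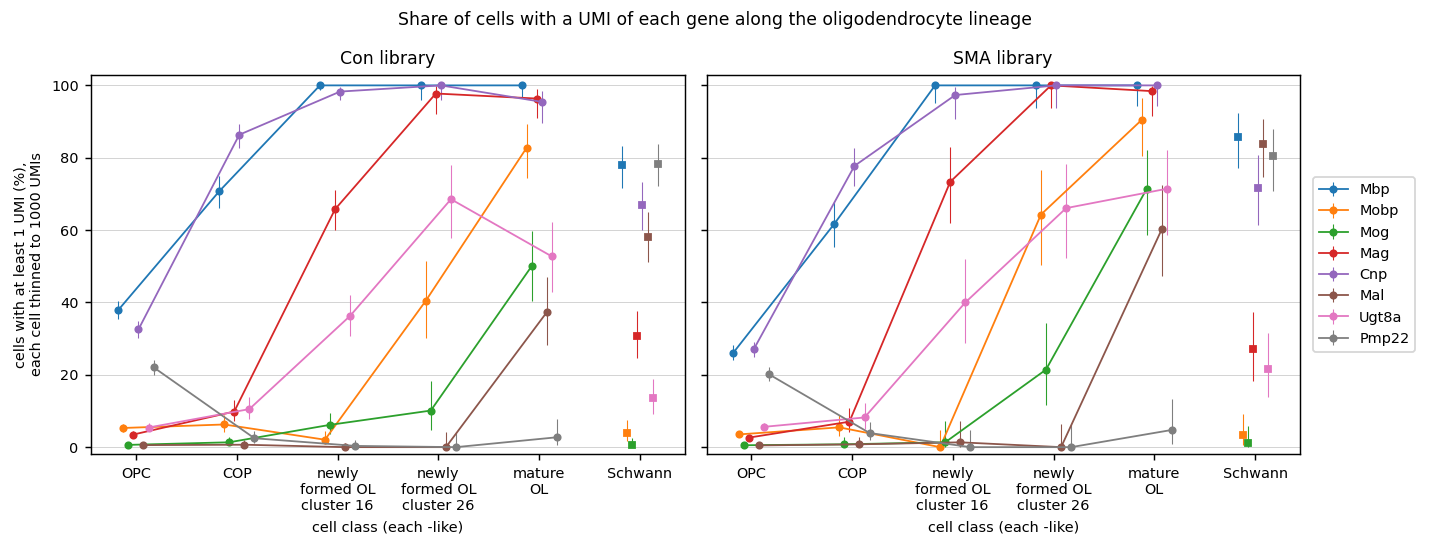
Share of cells with at least 1 UMI of each gene (vertical axis, %, each cell thinned to 1000 UMIs) by class or cluster along the oligodendrocyte lineage (horizontal axis), with Schwann-like cells as squares at the right, for the libraries labelled Con (left) and SMA (right); bars are 95% Clopper-Pearson intervals. Cnp and Mbp climb at the COP-like step, Mag and Ugt8a at cluster 16, Mobp at cluster 26 and Mal at the mature step, in both libraries.

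The number of members found in the same thinned cell followed these steps. The median was 1 of 8 in OPC-like cells of both libraries and 2 in COP-like cells. It was 3 labelled Con and 4 labelled SMA in newly formed and 5 and 6 in mature oligodendrocyte-like cells. At least 6 members were found in 40.9% of mature cells labelled Con and 68.3% of those labelled SMA. The mature cells were of unequal depth, with a median of 2404 UMIs labelled Con and 8055 labelled SMA, and the part of this in the difference was not tested.

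Schwann-like cells carried a set of their own. Pmp22 was found in 78.4% and 80.4% of thinned cells labelled Con and SMA, Mbp in 77.9% and 85.9%, Cnp in 66.8% and 71.7%, and Mal in 58.2% (51.2 to 65.0) and 83.7% (74.5 to 90.6). The cells were not uniform. Among the 121 thinned cells labelled Con with a Mal UMI, Pmp22 was found in 89.3% (82.3 to 94.2), and among the 87 without one in 63.2% (52.2 to 73.3). Mag was found in 38.8% and 19.5% of the same cells and Ugt8a in 19.8% and 4.60%. In the library labelled SMA 77 cells had a Mal UMI and 15 did not, with Pmp22 in 87.0% (77.4 to 93.6) and 46.7% (21.3 to 73.4). Mbp was found in 88.4% and 63.2% of these groups labelled Con, but in 84.4% (74.4 to 91.7) and 93.3% (68.1 to 99.8) labelled SMA.

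The genes most like each member were searched among 11187 genes with at least 500 UMIs, by Pearson's r over 32 class-by-library profiles, which share libraries and depth and so carry no test. Mobp and Mog were most alike among the members (r = 0.98), and Ermn, a cytoskeletal protein of oligodendrocytes, led the list of both (0.94 and 0.96). Mbp and Mag (0.98 with each other) shared Elovl7, a fatty acid elongase, with r = 0.93 and 0.92, followed by Aatk and Plxnb3. Cnp was most like Gal3st1, which makes sulfatide from the lipid that Ugt8a makes (0.96), Sirt2 (0.95) and Sh3gl3 (0.94). Ugt8a was most like Aatk (0.97), Fa2h, which hydroxylates the fatty acids of myelin lipids (0.96), and Sh3gl3 (0.96).

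Mal and Pmp22 had lower values of r. Mal was most like Erbb3, a receptor for axonal neuregulin (0.81), Cldn19, a claudin of Schwann cells (0.74), and Secisbp2l (0.73). Pmp22 was most like Gas2l3 (0.86), Prx, the peripheral myelin protein periaxin (0.83), and Mmgt2 (0.81). For Mobp the list went on with Tmem125 (0.93) and Nkx6-2 (0.92), and for Mog with Tmem125 (0.92) and Nkx6-2 (0.90). Pmp22 had an r of 0.43 with Mal, and from -0.32 with Mobp to -0.017 with Ugt8a with the others.

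Signal of the members was also present in all 7 named classes that form no myelin and were compared in both libraries. In erythroid-like cells Mbp stood at 424 (410.2 to 438) CPM labelled Con and 243 (227 to 260.3) labelled SMA, which was 1.61% and 1.12% of its mature level. Over the 7 classes Mbp ranged from 424 in erythroid-like to 1127 in mural-like cells labelled Con, and from 243 in erythroid-like to 501 in ependymal-like cells labelled SMA. Summed over the 8 members, erythroid-like cells held 1.09% (1.06 to 1.12) of the mature level labelled Con and 0.652% (0.615 to 0.691) labelled SMA.

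The signal was not even over cells. In these 7 classes the 5% of cells with most member UMIs (of the 7 members other than Pmp22) held 33.1% to 59.9% of such UMIs labelled Con and 36.6% to 54.1% labelled SMA. A single mural-like cell labelled Con held 416 of the 2949 UMIs of its class. Between 5.90% and 19.4% of the cells of a class labelled Con, and 12.9% to 33.4% labelled SMA, had none. Of all cells in these classes, 1.61% labelled Con and 0.744% labelled SMA had over 1% of their UMIs from these members. Without the top 5% of cells the summed level in erythroid-like cells was 326 in place of 575 CPM labelled Con and 189 in place of 325 labelled SMA.

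Of the classes kept, a cluster found only in the library labelled Con, fibroblast-like with 431 cells and a median of 2800 UMIs, had the least. Its Mbp was at 123 (105 to 144) CPM, below every other class kept of that library, and its Pmp22 at 221. The cluster left out for its ribosomal share had Mbp at 77.3. Before thinning 83.8% of the fibroblast-like cells of this cluster had no UMI of the 7 members. In monocyte-like cells labelled Con, with a median of 1451 UMIs, 82.1% had none. In cluster 7, which had markers of both erythroid cells and astrocytes and stayed unnamed, Mbp stood at 3106 and 1926 CPM, above the COP-like level in both libraries. Mobp was there at 185 and 230 CPM and Mog at 31.8 and 51.0, above their ranges over the 7 classes that form no myelin.

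RNA from 1 outside source would keep its genes in 1 ratio in every class of a library, so the members were also counted per Mbp UMI and set against erythroid-like cells. The counts describe the ratios, and the source of the signal was not tested. Erythroid-like cells held per 100 Mbp UMIs 17.5 of Cnp, 8.12 of Mobp, 6.80 of Mag and 1.38 of Pmp22 labelled Con, and 16.5, 7.85, 5.85 and 1.41 labelled SMA. Mobp was at 7.69 and 9.97 in astrocyte-like, 8.06 and 9.80 in microglia-like and 7.12 and 9.26 in OPC-like cells. On the log2 scale the ratio of OPC-like to erythroid-like cells was -0.19 (-0.40 to 0.020) and 0.24 (-0.13 to 0.63). Mog was likewise at -0.21 (-0.68 to 0.28) and 0.064 (-0.86 to 1.13), with 0 inside each of these intervals, while the levels of both genes were above the erythroid-like ones, as was that of Mbp. Elsewhere intervals lay off that ratio, for Mobp at 0.28 (0.011 to 0.54) in endothelial-like and -0.51 (-0.84 to -0.19) in mural-like cells labelled Con, for Mog at 0.90 (0.079 to 1.66) in fibroblast-like cells labelled Con, and in the 38 macrophage-like cells labelled SMA at 1.06 (0.35 to 1.73) and 2.87 (1.65 to 4.14).

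Mag lay off that ratio, to either side, in some classes. On the log2 scale it was at -0.51 (-0.75 to -0.27) in astrocyte-like, -0.61 (-1.21 to -0.058) in ependymal-like and -0.35 (-0.58 to -0.11) in OPC-like cells labelled Con, and at 0.71 (0.28 to 1.16) in microglia-like and 1.08 (0.23 to 1.86) in fibroblast-like cells labelled SMA.

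Cnp, Mal and Pmp22 departed from it too. Cnp was above the erythroid-like ratio in all 6 other non-myelin classes and in OPC-like cells of both libraries. In astrocyte-like cells it was 1.29 (1.17 to 1.42) above that ratio labelled Con and 1.87 (1.62 to 2.13) labelled SMA on the log2 scale, in ependymal-like cells 1.17 (0.95 to 1.38) and 1.32 (1.05 to 1.60), and in OPC-like cells 1.49 (1.36 to 1.61) and 2.04 (1.79 to 2.29). Its UMIs in astrocyte-like cells were spread, with a UMI in 75.7% and 67.4% of cells, and after thinning in 24.5% and 20.5%, against 7.72% and 3.72% of erythroid-like cells.

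Mal in endothelial-like cells was 4.51 (3.88 to 5.20) and 5.17 (4.28 to 6.25) above the erythroid-like ratio. It was also above it labelled Con in fibroblast-like, 2.80 (1.96 to 3.67), mural-like, 1.35 (0.52 to 2.21), and microglia-like cells, 1.14 (0.43 to 1.90), and labelled SMA in astrocyte-like cells, 0.99 (0.033 to 2.10). Its level in endothelial-like cells was 83.0 (73.9 to 93.0) CPM labelled Con and 149 (134 to 165) labelled SMA, against 2.68 and 2.85 in erythroid-like cells. A UMI was found in 141 of 437 and 138 of 327 endothelial-like cells, and after thinning in 6.41% (4.30 to 9.13) and 14.4% (10.8 to 18.7) of them, against 0.224% and 0.798% of erythroid-like cells.

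Pmp22 was above that ratio in the same 6 classes in both libraries, least in ependymal-like cells labelled SMA, 2.85 (2.0 to 3.84), and most in fibroblast-like cells labelled SMA, 6.30 (5.45 to 7.28). One fibroblast-like cell labelled Con held 167 of the 505 Pmp22 UMIs of its class, while the highest labelled SMA held 10 of 170. Ugt8a was above it in OPC-like cells, 2.83 (2.32 to 3.38) labelled Con and 3.49 (2.56 to 4.63) labelled SMA, and in mural-like cells, 1.52 (0.87 to 2.19) and 2.30 (0.99 to 3.69). Its interval also lay above that ratio in astrocyte-like cells labelled Con and in endothelial-like cells labelled SMA.

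**Figure D3:**
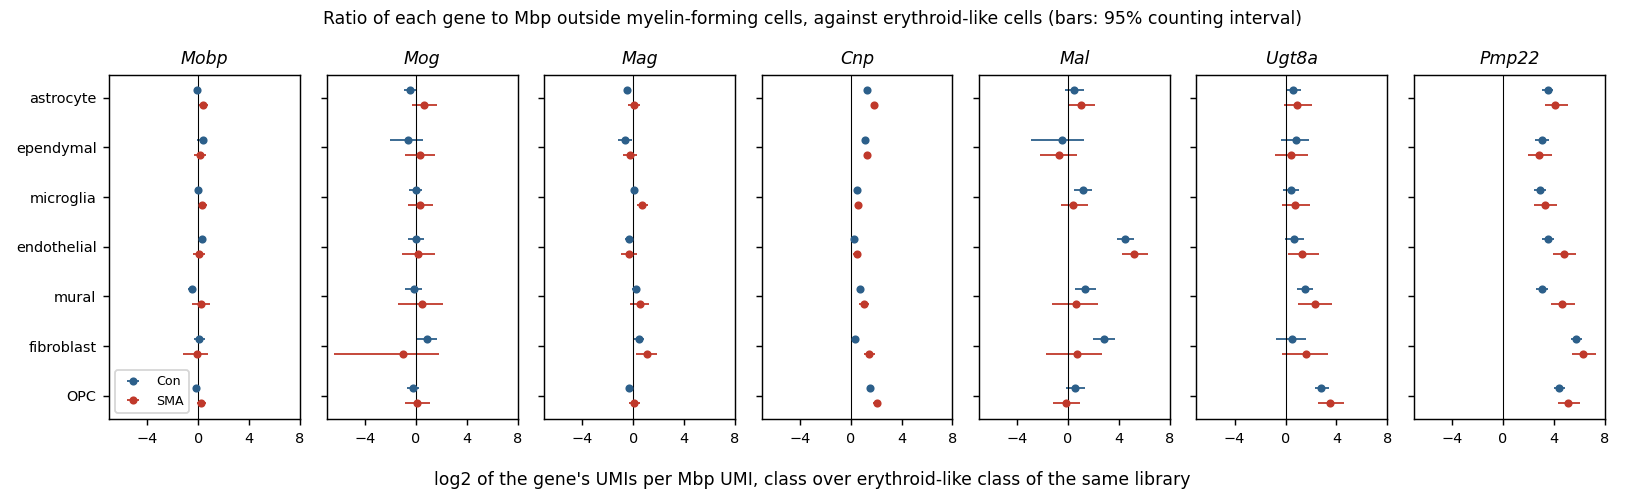
Log2 of each gene's UMIs per Mbp UMI in a class over the same ratio in erythroid-like cells of the same library (horizontal axis), by class (vertical axis), for the libraries labelled Con (blue) and SMA (red) with 95% counting intervals. In the 7 classes plotted Mobp and Mog lie within 1 of 0 and Cnp and Pmp22 right of 0, and Mal stands farthest right in endothelial-like cells.

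The signal in classes that form no myelin itself differed between the libraries. Mbp was lower under the SMA label in all 7 non-myelin classes, with log2 ratios of SMA over Con from -1.20 in mural-like to -0.35 in ependymal-like cells, a median of -0.76 and every interval below 0. In erythroid-like cells the ratio was -0.80 (-0.91 to -0.69) for Mbp, for Cnp -0.89 (-1.16 to -0.62) and for Mag -1.02 (-1.49 to -0.57). Mag was past 2-fold there, where 1.89% of all genes with at least 100 UMIs were, and Mbp at -1.20 (-1.39 to -1.014) and Mag at -1.06 (-1.76 to -0.43) were past it in mural-like cells, where 2.88% were. Without the 5% of cells with most member UMIs the summed level of the members other than Pmp22 was at -0.79 in place of -0.82 in erythroid-like, -0.92 in place of -1.08 in mural-like, -0.80 in place of -0.53 in microglia-like, -0.55 in place of -0.33 in ependymal-like and -0.30 in place of -0.46 in endothelial-like cells. No member was past 2-fold in astrocyte-like, ependymal-like, microglia-like or fibroblast-like cells, where 0.865%, 0.451%, 0.413% and 8.45% of all genes were. In clusters that stayed unnamed, Mbp was past it in cluster 15, -1.13 (-1.29 to -0.97), against 0.59% of all genes, and Pmp22 in cluster 7, -2.23 (-2.76 to -1.74), against 2.07%. Over all deposited barcodes Mbp was at 4653 CPM labelled Con and, with the shared barcodes left out of this library only, at 3057 labelled SMA. The shared barcodes left out stood at 4642. What gave this signal, or its difference between the libraries, was not tested.

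In OPC-like cells all 8 members were lower under the SMA label. The median log2 ratio was -0.60, where the median of all genes was -0.015. The intervals of 7 of 8 members lay below 0, but the share of all genes with such an interval was not counted. No member was past 2-fold, against 0.464% of all genes. Mbp was at 869 CPM labelled Con and 471 labelled SMA, -0.88 (-0.93 to -0.83) beside -0.80 in erythroid-like cells. Mag was -0.68 (-0.90 to -0.48), Mog -0.90 (-1.35 to -0.46), Mal -0.73 (-1.25 to -0.22) and Mobp -0.51 (-0.68 to -0.33). Cnp was at -0.42 (-0.49 to -0.36), Pmp22 at -0.13 (-0.21 to -0.052) and Ugt8a at -0.065 (-0.23 to 0.10). The part of the lower background in these differences was not tested.

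In COP-like cells 6 members had at least 100 UMIs, 5 were lower under the SMA label, the median was -0.37, and none was past 2-fold, against 0.515% of all genes. Cnp was at 2475 and 1909 CPM, -0.37 (-0.43 to -0.32), and Mbp at -0.56 (-0.63 to -0.50), while Ugt8a was at -0.043 (-0.28 to 0.19). The direction turned under 1 alternative. With the shared barcodes kept the class held 956 in place of 256 cells labelled SMA and the median was 0.33.

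In newly formed oligodendrocyte-like cells 5 of 6 members were higher under the SMA label, with a median of 0.60. Mobp alone was past 2-fold, at 337 CPM labelled Con and 1058 labelled SMA, 1.65 (1.55 to 1.75), against 1.75% of all genes. Mag was 0.81 (0.77 to 0.86), Mog 0.77 (0.52 to 1.014) and Ugt8a 0.43 (0.34 to 0.51), with Cnp at -0.14 (-0.17 to -0.10).

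The libraries differed in which of the 2 clusters made up this class. Cluster 26 held 42.7% (34.1 to 51.7) of its cells labelled SMA and 23.4% (19.2 to 27.9) labelled Con. Within cluster 16 Mobp was lower under the SMA label, -0.91 (-1.84 to -0.10), on 14 and 100 UMIs, as was Mog, -0.89 (-1.55 to -0.30), and the median was -0.31. Within cluster 26 Mobp was higher, 0.90 (0.79 to 1.00), and so were Mog, 0.79 (0.49 to 1.10), and Mag, 0.51 (0.46 to 0.57), with a median of 0.33. No member was past 2-fold within either, against 0.632% and 1.31% of all genes. Mbp and Cnp were lower in both, at -0.34 (-0.38 to -0.30) and -0.13 (-0.16 to -0.10) and at -0.29 (-0.34 to -0.24) and -0.15 (-0.20 to -0.094). With the shared barcodes kept the class held 71 cells labelled SMA and 244 labelled Con. It was then named, as cluster 16 was, on 3 markers against 2 of COP-like cells. Mobp was at -0.86 and Mog at -1.54 in it.

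In mature oligodendrocyte-like cells 4 of 7 members were higher under the SMA label, with a median of 0.12, and none was past 2-fold, against 2.72% of all genes. Mal was at 1758 CPM labelled Con and 3202 labelled SMA, 0.87 (0.75 to 0.98), and Mog at 0.47 (0.36 to 0.58). Mbp was lower, -0.27 (-0.31 to -0.24), as was Cnp, -0.24 (-0.31 to -0.18), and Mobp was at -0.094 (-0.17 to -0.017). The class held 63 cells labelled SMA and 113 labelled Con, of the unequal depth given above. Without the limit of 4000 genes per cell it held 173 and 214, and Mal was at 0.35, Mog at -0.014 and the median at -0.070. At resolution 0.5 the name covered more cells, 302 labelled SMA and 686 labelled Con, with a median of 2068 UMIs. It then rested on 6 markers against 1 of erythroid cells. Mbp was there at 0.43, Cnp at 0.43 and Mobp at 0.85, with 4 members past 2-fold against 3.92% of all genes. With the shared barcodes kept the class held 571 and 236 cells, named on 5 markers against 3 of newly formed cells. Mbp was then at 0.038 and Mobp at 1.007, with 3 past 2-fold against 2.49%. With mitochondrial shares up to 20% Mbp was at -0.998.

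In Schwann-like cells, 92 labelled SMA and 208 labelled Con, 3 of 7 members were higher and 4 lower under the SMA label, and none was past 2-fold, against 2.39% of all genes. Pmp22 was at 9348 CPM labelled Con and 10046 labelled SMA, 0.10 (0.067 to 0.14), Mal at 0.35 (0.27 to 0.43) and Mbp at -0.20 (-0.24 to -0.15). With each cell weighted equally Pmp22 was at 0.42, Mal at 0.62 and Mbp at 0.088.

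In endothelial-like cells Mal was higher under the SMA label, 0.85 (0.62 to 1.07), and so was Pmp22, 0.54 (0.32 to 0.77), while Mbp was lower, -0.71 (-0.83 to -0.60), and none was past 2-fold, against 1.69% of all genes. In astrocyte-like cells Cnp was at -0.27 (-0.35 to -0.19) beside -0.76 (-0.82 to -0.70) for Mbp. Pmp22 was at -0.11 (-0.24 to 0.019) there, at 0.43 (0.066 to 0.78) in mural-like and at -0.52 (-0.94 to -0.093) in ependymal-like cells.

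**Figure D4:**
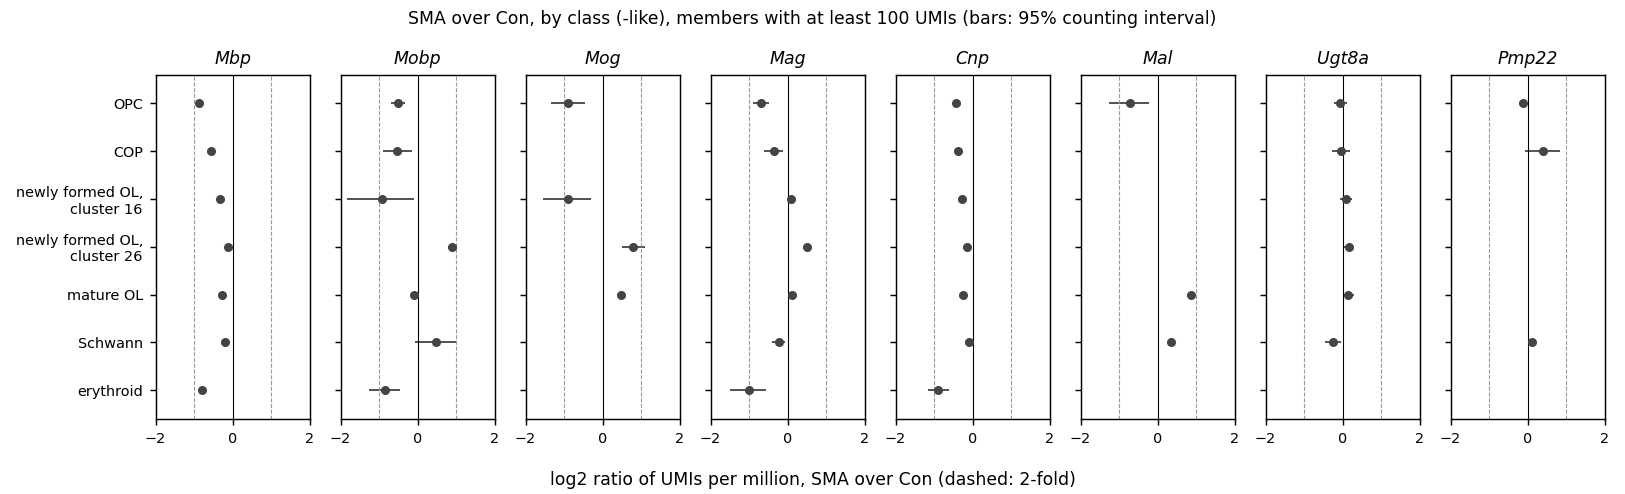
Log2 ratio of CPM, SMA over Con (horizontal axis), of each gene by class or cluster (vertical axis), for genes with at least 100 UMIs, with 95% counting intervals; dashed lines mark 2-fold. Mbp and Cnp lie left of 0 in every row plotted (the newly formed class as a whole, with Mbp at 0.085, and fibroblast-like cells, with Cnp at 0.20, are not plotted), Mobp and Mog lie left of 0 in cluster 16 and right of 0 in cluster 26, and Mal lies left of 0 in OPC-like and right of 0 in mature oligodendrocyte-like and Schwann-like cells.

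Other myelin genes, from lists chosen with earlier results of these data known, were read the same way. Of 15 other central myelin genes 14 had at least 100 UMIs in mature oligodendrocyte-like cells, 11 were higher and 3 lower under the SMA label, with a median of 0.23. Opalin, a glycoprotein of central myelin, was past 2-fold, at 116 and 236 CPM, 1.03 (0.58 to 1.49), against 2.72% of all genes. It was at 0.53 without the limit on genes and between 1.09 and 2.08 under the other alternatives run. In newly formed cells 6 of 11 genes of the list were higher and 5 lower, with a median of 0.14 and none past 2-fold, against 1.75% of all genes. Within the clusters of that class more were lower, 8 of 10 in cluster 16 and 6 of 10 in cluster 26, with medians of -0.050 and -0.10. The most abundant of the list, Cldn11, Sirt2 and Cd9, stood at 5202 and 6389, 5559 and 4131, and 604 and 617 CPM in mature cells. In OPC-like cells 10 of 12 genes of the list were lower, with a median of -0.094, and in COP-like cells 6 of 11. Outside the myelin-forming classes, genes named after their values were seen were lower by over 2-fold, Cldn11, Sirt2 and Bcas1 of 5 compared in erythroid-like cells, Cldn11 and Bcas1 of 6 in mural-like cells, and Bcas1 of 9 in astrocyte-like cells and of 6 in cluster 7. Of all genes 1.89%, 2.88%, 0.865% and 2.07% were past 2-fold in these, in that order.

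Of 7 peripheral genes 6 could be compared in Schwann-like cells, 3 higher and 3 lower under the SMA label. Pmp2, a lipid-binding protein of peripheral myelin, was the one past 2-fold, at 1232 CPM labelled Con and 403 labelled SMA, -1.61 (-1.78 to -1.45), against 2.39% of all genes. It was at -0.69 with the shared barcodes kept and between -1.89 and -1.32 under the other alternatives run. Ncmap (462 and 466 CPM) and Cldn19 (379 and 429) differed less, at 0.014 (-0.16 to 0.18) and 0.18 (-0.0046 to 0.36).

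Of 8 genes of myelin lipid synthesis and turnover 7 could be compared in newly formed oligodendrocyte-like cells, 6 of them higher under the SMA label, but 1 of 6 was higher within cluster 16, with a median of -0.30, and 5 of 6 within cluster 26. In mature cells 5 could be compared, 4 of them higher, with none past 2-fold, against 2.72% of all genes. Elovl7 was at 685 and 966 CPM in mature cells, 0.50 (0.30 to 0.69), Cers2, a ceramide synthase, at 0.16 (-0.016 to 0.34) and Gal3st1 at -0.22 (-0.42 to -0.029). In COP-like cells 6 of 7 and in Schwann-like cells 5 of 6 genes of this list were lower.

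Among 4 regulators of the oligodendrocyte lineage, Myrf, the factor that drives myelin genes, was at 98.8 and 97.7 CPM in COP-like and 198 and 236 in newly formed cells labelled Con and SMA, 0.25 (0.072 to 0.43) in the latter. Nkx6-2 stood at 83.2 and 165 in newly formed cells and was past 2-fold in cluster 26, 1.02 (0.72 to 1.33), against 1.31% of all genes, and at -0.25 (-0.77 to 0.24) in cluster 16. All 4 regulators were higher under the SMA label in the newly formed class as a whole, but 2 higher and 2 lower within each of its clusters, where Myrf was at 0.20 (-0.068 to 0.46) in cluster 16 and 0.016 (-0.24 to 0.27) in cluster 26. Qk, which governs RNA processing in oligodendrocytes, was at 1282 and 1302, 0.022 (-0.052 to 0.096).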

How the data were processed

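Whole spinal cords were dissociated and read with 10x Genomics 3′ version 3 chemistry. The deposited values are raw UMI counts of genes by barcode. Per the labels, Cell Ranger with the mm10 build made them, and Seurat 3.2.2 is also named. Barcodes with 200 to 4000 genes and a mitochondrial share under 10% were kept. A cluster of 1331 barcodes labelled Con with a ribosomal share over 30% was left out. Doublets were limited only by the 4000-gene ceiling. Cells were clustered (2000 variable genes, 30 components, 20 neighbours, Louvain, resolution 1) with scikit-learn 1.9.0 and python-igraph 0.11.9, without the members or the other myelin lists, and named from markers, where a rule on clusters with markers of a pair of classes was set after the data were seen. The members, lists and markers were chosen with earlier results of these data known. UMIs were summed by class and library and given as CPM with exact Poisson intervals. Log2 ratios have exact conditional binomial intervals, shares Clopper-Pearson intervals (SciPy 1.17.1), all at 95%. Classes needed 50 cells per library, and differences at least 100 UMIs and 2-fold. Genes were named by rule: all members, the 3 most alike by profile, and from each other list the 3 most abundant and those past 2-fold in myelin-forming classes and their precursors. Steps were tested on simulated data. 3 listed genes are not reported here.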

Additional observations from a re-analysis of the deposited data

Results flagged for a closer look

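For 7 members the direction of the difference between the libraries was opposite in different classes, with both intervals off 0. Each pair below is the highest and lowest ratio over up to 12 named classes, some of which form no myelin. How many of all genes would meet this was not counted, so the count is not a result about the members. The difference between the classes was not tested, since each group was 1 library. The log2 ratio of SMA over Con of Mobp was 1.65 in newly formed oligodendrocyte-like and -0.98 in endothelial-like cells. That of Mag was 0.81 in newly formed oligodendrocyte-like and -1.06 in mural-like cells, of Mog 0.77 in newly formed oligodendrocyte-like and -0.90 in OPC-like cells, and of Mbp 0.085 in newly formed oligodendrocyte-like and -1.20 in mural-like cells. In newly formed cells Mobp was -0.86 and Mog -1.54 with the shared barcodes kept, and -0.91 and -0.89 within cluster 16. The value of Mbp there was -0.34 within cluster 16 and -0.13 within cluster 26, and between -0.33 and -0.076 under 4 alternatives. Mal stood at 0.87 in mature oligodendrocyte-like and -0.73 in OPC-like cells. Ugt8a was at 0.43 in newly formed oligodendrocyte-like and -0.25 in Schwann-like cells, where it was 0.14 with each cell weighted equally and 0.85 after thinning, and Pmp22 at 0.54 in endothelial-like and -0.52 in ependymal-like cells.

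Barcodes with over 4000 genes entered only the alternative with no limit on genes. There were 461 of them labelled SMA, after the shared ones were left out, and 819 labelled Con, and 5 members stood higher and 3 lower in those labelled SMA. Mal was at 1225 CPM labelled SMA and 805 labelled Con. Mog was at 1184 and 953, Ugt8a at 1069.5 and 905, Mag at 4698 and 4174, and Mobp at 2294 and 2086. Mbp was lower, at 11235 CPM labelled SMA and 12505 labelled Con, as were Cnp at 3429 and 3658 and Pmp22 at 171 and 315.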

How the results depend on the processing

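The members' median log2 ratio of SMA over Con in OPC-like cells kept within its counting interval under every alternative run, with 1 member past 2-fold in place of 0 under a mitochondrial share under 20% and after thinning to 1000 UMIs. With the shared SMA barcodes kept, the median was 0.33 in COP-like cells (1 member past 2-fold), -0.28 in newly formed and 0.65 in mature oligodendrocyte-like cells (3 past 2-fold), and Mobp in newly formed cells went from 1.65 to -0.86. With a mitochondrial share under 20% it was 0.39 in newly formed (0 past 2-fold), -0.090 in mature oligodendrocyte-like and -0.24 in Schwann-like cells. With no limit on genes it was -0.58 in COP-like, 0.20 in newly formed (0 past 2-fold) and -0.070 in mature cells. At resolution 0.5 it was 0.33 in newly formed (0 past 2-fold) and 1.04 in mature cells (4 past 2-fold), where the mature class held 302 cells labelled SMA and 686 labelled Con. With each cell weighted equally it was 0.29 in mature (1 past 2-fold) and 0.088 in Schwann-like cells, and with cells thinned to 1000 UMIs 0.19 (1 past 2-fold) and 0.18. Within cluster 16 and within cluster 26, alternatives chosen after seeing the data, it was -0.31 and 0.33, each with 0 past 2-fold. Resolution 2, centring on the median gene and cells of at least 5000 UMIs moved no median beyond its interval, and in mature cells the last left under 50 cells per library and was not run. Of 34 ratios of single members in these classes, 9 changed sign with the shared barcodes kept, 7 with a mitochondrial share under 20%, 4 at resolution 0.5 and 3 each with no limit on genes, with equal weights and after thinning. Of all genes 0.332% to 3.92% were past 2-fold in these classes under these alternatives. Some alternatives also changed which cells carried a name. With the shared barcodes kept the newly formed class had 3 markers against 2 of COP-like cells, as cluster 16 had. The mature class then held 571 cells labelled SMA and 236 labelled Con. At resolution 0.5 the mature class had 6 markers against 1 of erythroid cells. The part of this in the changes, and any other cause of them, was not tested.

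The summed stray level in erythroid-like cells, as percent of mature oligodendrocyte-like cells, was 0.652% labelled SMA and 1.09% labelled Con. It was 1.67% and 2.67% with the shared barcodes kept, 2.03% and 1.25% with a mitochondrial share under 20%, 0.838% and 1.22% with no limit on genes, and 1.56% and 4.39% at resolution 0.5. At resolution 0.5 the mature class, the base of the percent, held 302 cells labelled SMA and 686 labelled Con. The stray level was 0.929% and 1.35% with each cell weighted equally, 0.995% and 1.38% after thinning, and 0.380% and 0.624% without the 5% of cells with most member UMIs. It was higher labelled SMA only with a mitochondrial share under 20%. Shares of cells with a UMI moved beyond their intervals in 71 of 80 cases without thinning. No paired analysis was possible because each group was 1 library. Mal, Mog and Pmp22 at a few CPM rest on few UMIs, so small levels of them in a class were at the limit of this depth.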
